A study of Rattus norvegicus with 6 samples.

Results

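The neuregulins, heparin-binding EGF-like growth factor and the 4 receptors of the ErbB family were examined in rat heart primordia around the time at which the heart begins to beat. The genes were Nrg1, Nrg2, Hbegf, Egfr, Erbb2, Erbb3 and Erbb4, and every array probe that the array annotation assigned to 1 of these 7 names was taken, which gave 10 probes of 30367. By gene name, they are 7 of 19284 named genes on the array. The heart primordium, the cardiac crescent of an early embryo, was dissected from Wistar rats (spelled Wister in the labels) on embryonic day 10. Primordia with a flat centre formed the pre-heartbeat group and those with a raised centre the post-heartbeat group, with 3 samples and 3 arrays per group and no drug or genetic change in either. The study also gave the groups different ranges of somite number, higher in the post-heartbeat group with an overlap. Heartbeat and developmental stage therefore cannot be told apart. The submitters called the samples biological replicates, but whether a sample held 1 primordium or several was not given in the sources used here, so p-values measure the spread between these samples.

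Neuregulins and related ligands are membrane-bound proteins whose EGF-like domain, once shed or presented at the cell surface, binds an ErbB receptor on a neighbouring cell. ERBB3 and ERBB4 bind neuregulins, EGFR binds ligands such as EGF and HB-EGF, and ERBB2, which has no known ligand of its own, is the preferred partner of the others in dimers that signal through the RAS-ERK and PI3K-AKT branches. In the embryonic heart, Nrg1 from the endocardium acts on ERBB2 and ERBB4 of the myocardium and is needed for trabeculation, ERBB3 acts in the cushion mesenchyme, and HB-EGF acts through EGFR on the growth of the valves.

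What each probe could see is set by its sequence, and the probes that lay in coding sequence are shown because they bear on which ligand and which receptor domain was measured. Positions are on the rn4 genome, as the array annotation gives them. The Nrg1 probe (A_64_P281840, chr16:64093933-64093992, plus strand) and the first Nrg2 probe (A_64_P053115, chr18:28670922-28670981, minus strand) both lay in the part that codes for the EGF-like domain, which the main neuregulin isoforms share. Capitals mark the bases that were the same in both probes when they were aligned without gaps, 27 of 51 aligned bases (52.9%).
Nrg1: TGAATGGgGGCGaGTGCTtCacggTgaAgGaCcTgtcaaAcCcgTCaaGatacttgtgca
Nrg2: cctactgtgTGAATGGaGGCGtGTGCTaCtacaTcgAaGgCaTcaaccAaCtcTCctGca
The annotation listed 3 Ensembl transcripts for the Nrg1 probe, so that isoforms of Nrg1 were not told apart. The second Nrg2 probe (A_64_P053114, chr18:28665182-28665241, minus strand) lay downstream in the same coding sequence, with its start at base 1408 of the transcript against 1331. It is printed with no capitals, and whether the 2 Nrg2 probes read the same isoforms was not examined.
Nrg2, second probe: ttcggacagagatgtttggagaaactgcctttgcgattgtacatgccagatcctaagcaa
For the receptors, the probe of Erbb4 (A_44_P529426, chr9:66844421-66846151, minus strand) lay in the part that codes for the cytoplasmic tail, and its 60 bases were spread over 1731 bases of the genome, so it spans an intron. The first of 3 Erbb2 probes (A_64_P038812, chr10:87238370-87238429, plus strand) lay in the part that codes for the stretch around the membrane. No base is in capitals in these 2 sequences.
Erbb4: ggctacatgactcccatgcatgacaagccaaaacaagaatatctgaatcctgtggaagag
Erbb2, first probe: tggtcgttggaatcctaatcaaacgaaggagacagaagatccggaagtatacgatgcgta
The other 5 probes are given by position alone. They were those of Egfr (A_44_P346408, chr14:97788051-97788110, plus strand), Erbb3 (A_64_P080643, chr7:1858095-1858154, minus strand) and Hbegf (A_64_P041521, chr18:29143627-29143686, minus strand), with starts at bases 3997, 4122 and 1430 of their transcripts, and those of Erbb2 that start at bases 4289 and 4541 (A_64_P038817, chr10:87242482-87242541, and A_64_P109493, chr10:87242734-87242793, both on the plus strand). Whether these lie in coding or untranslated exons is not given in the array annotation.

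All levels are log2 signals of a probe relative to the 75th percentile of its array, so 0 is the level of a spot at that percentile, and levels are compared between arrays for 1 probe and not between probes. The exception is the summed signal of a list, in which brighter probes weigh more. A share of such a sum is a share of signal and not of transcripts. That percentile ranged over 1145.76 to 1701.98 units of intensity, no spot was saturated, and the number of arrays limits the precision. The arrays lay on 2 slides that were scanned separately, with pre-heartbeat sample 1 and post-heartbeat samples 1 and 2 on the first, and pre-heartbeat samples 2 and 3 and post-heartbeat sample 3 on the second. As 3148 of 19297 tested probes differed between the slides, the difference of each tested member probe is accompanied by its value in a fit with the slide as a block and by the values within each slide. In bulk tissue, fewer cells of a type and less RNA per cell cannot be told apart.

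Probes were kept for testing when all 3 arrays of either group showed them well above background. Of the 10 probes, 7 passed, which covered 6 of the 7 genes, and both Nrg2 probes and the first Erbb2 probe did not pass. The clearest difference was in Egfr, which was lower in the post-heartbeat group. With limma and Benjamini-Hochberg adjustment over all tested probes, 0 of the 7 member probes passed the threshold of 0.05, where 0.14% of all tested probes did, and 3 of the 7 had an unadjusted p under 0.05, against 7.01% of all probes. With the slide as a block, 1 of 7 passed, against 1.62% of all probes in either direction and 0.461% as lower, and 5 of 7 had an unadjusted p under 0.05, against 9.65%. The study's methods selected genes that were higher by at least 1.5 fold with an unadjusted p under 0.05. This rule was extended here to lower genes. In the extended form 1 of the 7 probes met it, against 3.04% of all probes in either direction and 1.15% as lower. Egfr was the probe concerned in both cases. Groups did not overlap for 2 of the 7 probes, Egfr and Erbb3, both lower, against 11.5% of all tested probes in either direction and 6.14% as lower. Erbb3 was kept for testing only through the pre-heartbeat group, in which it was higher, so its lower level is given as a description. It is also in both counts of unadjusted p under 0.05, so these counts and that of non-overlap are descriptions too.

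**Figure D1:**
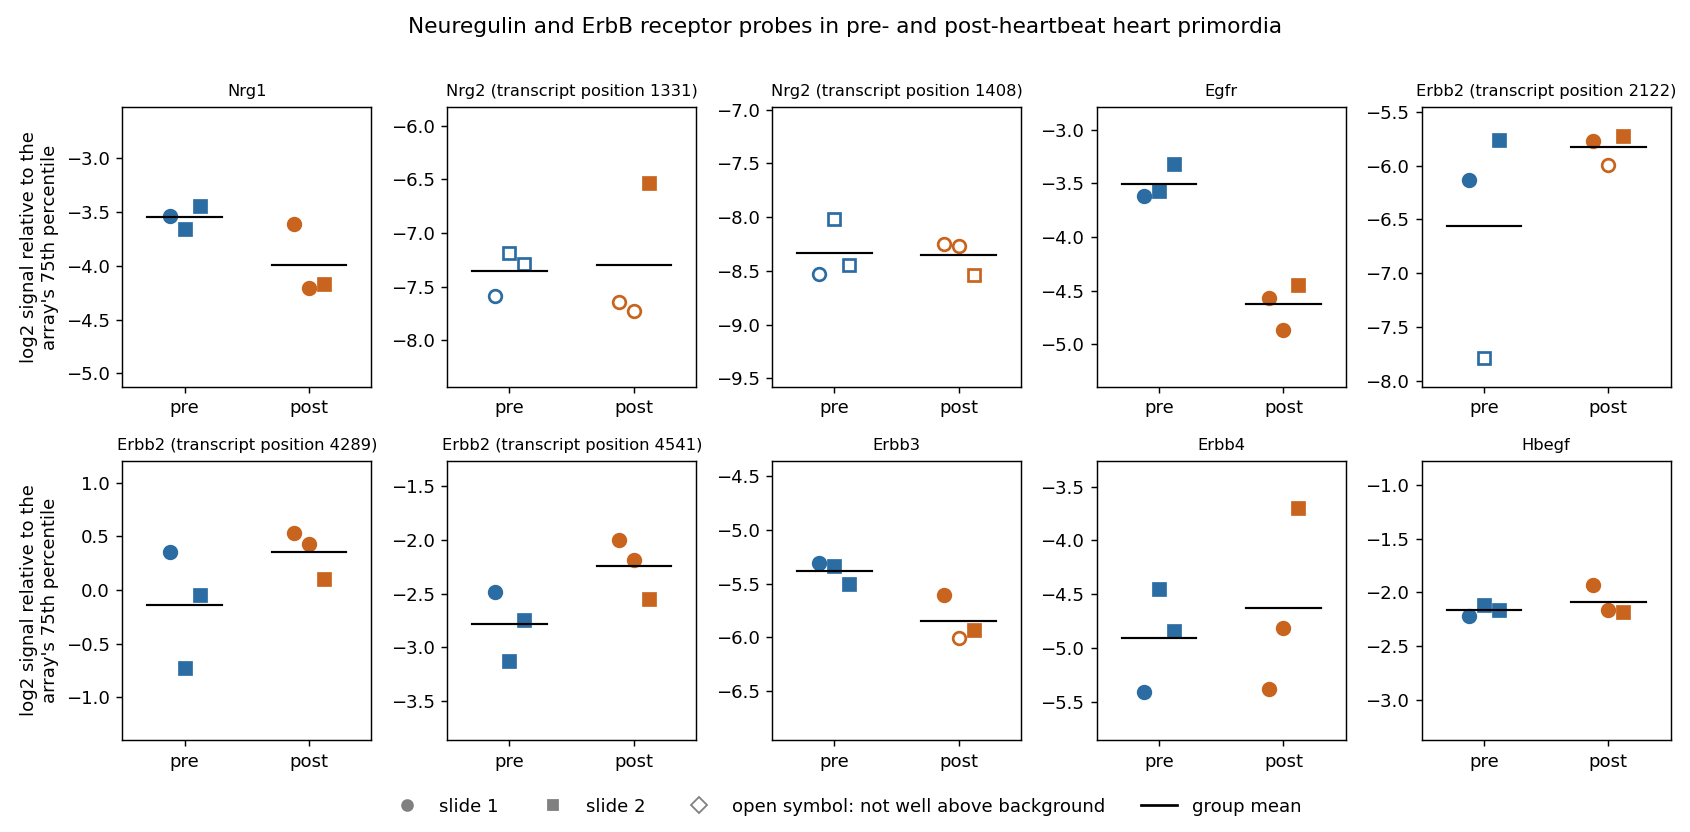
Level of each of the 10 probes on each array, as log2 signal relative to the array's 75th percentile, with pre-heartbeat arrays in blue and post-heartbeat arrays in orange. Circles are slide 1, squares slide 2, open symbols arrays on which the probe was not well above background, and lines the group means; every panel spans the same height, and the 3 post-heartbeat values of Egfr lie below all of its pre-heartbeat values.

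Nrg1, the ligand that the endocardium sends to the myocardium, was well above background on all 6 arrays. Its levels were -3.54, -3.65 and -3.44 in pre-heartbeat samples 1 to 3 and -3.61, -4.21 and -4.17 in post-heartbeat samples 1 to 3. Post-heartbeat samples 2 and 3 were below every pre-heartbeat sample, but post-heartbeat sample 1 was at the pre-heartbeat level, so the groups overlapped. The mean was -3.54 ± 0.10 (SD, n = 3) before and -3.99 ± 0.34 after, a log2 difference of -0.45 (SE 0.20, 95% interval -0.91 to 0.015) that did not pass the threshold in limma (adjusted p = 0.743). The difference was -0.37 on slide 1 and -0.62 on slide 2, and -0.49 with the slide as a block (adjusted p = 0.422). Without post-heartbeat sample 1 it was -0.64 and met the rule of the study's methods as extended to lower genes, and with normexp background correction it was -0.28.

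Nrg2, a second neuregulin with an EGF-like domain of the same kind, was close to background. The first probe was well above background on 0 pre-heartbeat arrays and 1 post-heartbeat array, sample 3, where its level was -6.54. On the other 5 arrays it was between -7.72 and -7.18. The second probe was well above background on 0 of 6 arrays. Neither probe was tested, and no fold change is given for this gene.

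Hbegf, a ligand of EGFR and ERBB4, had the tightest levels of the member probes. They were -2.22, -2.12 and -2.16 in the pre-heartbeat samples and -1.93, -2.16 and -2.18 in the post-heartbeat samples. Post-heartbeat sample 1 was the highest, and the other post-heartbeat samples lay among the pre-heartbeat ones. The log2 difference was 0.074 (SE 0.14, limma adjusted p = 0.886), and its 95% interval, -0.25 to 0.40, excluded a change of 1.5 fold in either direction. The sign turned to -0.0062 without post-heartbeat sample 1, and the difference was 0.17 on slide 1 and -0.040 on slide 2.

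Egfr, the receptor of EGF, HB-EGF and related ligands, was well above background on all 6 arrays. Its levels were -3.62, -3.57 and -3.32 in the pre-heartbeat samples and -4.57, -4.86 and -4.45 in the post-heartbeat samples. Every post-heartbeat sample was below every pre-heartbeat sample, with a gap of 0.83 between the groups, and the 2 spots of the probe on an array differed by at most 0.34. The mean was -3.50 ± 0.16 (SD, n = 3) before and -4.63 ± 0.21 after, a log2 difference of -1.12 (SE 0.17, 95% interval -1.52 to -0.72), which is a level 2.18-fold lower. Among the 19297 tested probes it ranked 66 by p. Without a slide term, the limma adjusted p was 0.0829, so the probe did not pass the threshold. It met the rule of the study's methods only as extended here to lower genes. An exact two-sided permutation test, for which the arrays can be split in 10 ways, gave p = 0.1, the smallest it can give. With the slide as a block, the difference was -1.05 (SE 0.15) with an adjusted p of 0.0217 in limma, and it was -1.10 within slide 1 and -0.999 within slide 2. This call was lost without pre-heartbeat sample 1 (adjusted p = 0.297) or post-heartbeat sample 3 (adjusted p = 0.257), each of which was the only array of its group on its slide. Over all alternatives the difference ranged from -1.21 to -0.59 and the adjusted p from 0.0195 to 0.393, and the smallest difference came with normexp background correction (adjusted p = 0.254).

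Erbb2, the receptor that partners the others, was read by 3 probes, and the mean was higher in the post-heartbeat group for each of them. The first and second probes had only 1 spot on each array, and the third had 2. The second probe, at position 4289 of the transcript, had levels of 0.35, -0.73 and -0.050 before and 0.53, 0.43 and 0.11 after. The third probe, at position 4541, had levels of -2.48, -3.13 and -2.75 before and -1.999, -2.19 and -2.55 after. On each of these probes the groups overlapped and pre-heartbeat sample 2, the array with the lowest 75th percentile, was the lowest of the 6. The log2 difference was 0.50 (SE 0.28, 95% interval -0.17 to 1.17) for the second probe and 0.54 (SE 0.22, 95% interval 0.011 to 1.07) for the third, with limma adjusted p-values of 0.866 and 0.705. With the slide as a block they were 0.31 (adjusted p = 0.823) and 0.39 (adjusted p = 0.456). Within slides 1 and 2 the second probe differed by 0.13 and 0.49, and the third by 0.39 on both. Without pre-heartbeat sample 2 the differences were 0.21 and 0.37. The first probe, in the coding sequence around the membrane, was well above background on 2 arrays of each group and was not tested, with levels of -6.13, -7.79 and -5.76 before and -5.77, -5.99 and -5.72 after. Pre-heartbeat sample 2 was the lowest there too, and it and post-heartbeat sample 2 were the arrays without a signal well above background.

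Erbb3, a neuregulin receptor with little kinase activity of its own, was the second member whose groups did not overlap. Its levels were -5.31, -5.34 and -5.50 before and -5.60, -6.00 and -5.93 after, and 3 pre-heartbeat arrays but 2 post-heartbeat arrays showed it well above background. The gap between the groups was 0.11, while the 2 spots of the probe on an array differed by 0.60 in the median and by up to 1.60. The log2 difference was -0.46 (SE 0.16, 95% interval -0.84 to -0.086) and did not pass the threshold in limma (adjusted p = 0.531). It was -0.49 on slide 1, -0.51 on slide 2 and -0.50 with the slide as a block (adjusted p = 0.2502). With normexp background correction it was -0.19. As the probe was kept for testing only through its higher group, these values are descriptions and not support for a fall.

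Erbb4, the neuregulin receptor of the myocardium with a kinase of its own, varied more within groups than between them. Its levels were -5.41, -4.45 and -4.84 before and -5.38, -4.81 and -3.70 after. The lowest value of each group lay on slide 1, and the highest of each on slide 2. The log2 difference was 0.27 (SE 0.45, 95% interval -0.78 to 1.32, limma adjusted p = 0.876), and it turned to -0.20 without post-heartbeat sample 3. With the slide as a block it was 0.63 (SE 0.22) with an unadjusted p of 0.0229 and an adjusted p of 0.354 in limma. Within slides 1 and 2 it was 0.32 and 0.95, so on both slides the post-heartbeat mean was higher.

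**Figure D2:**
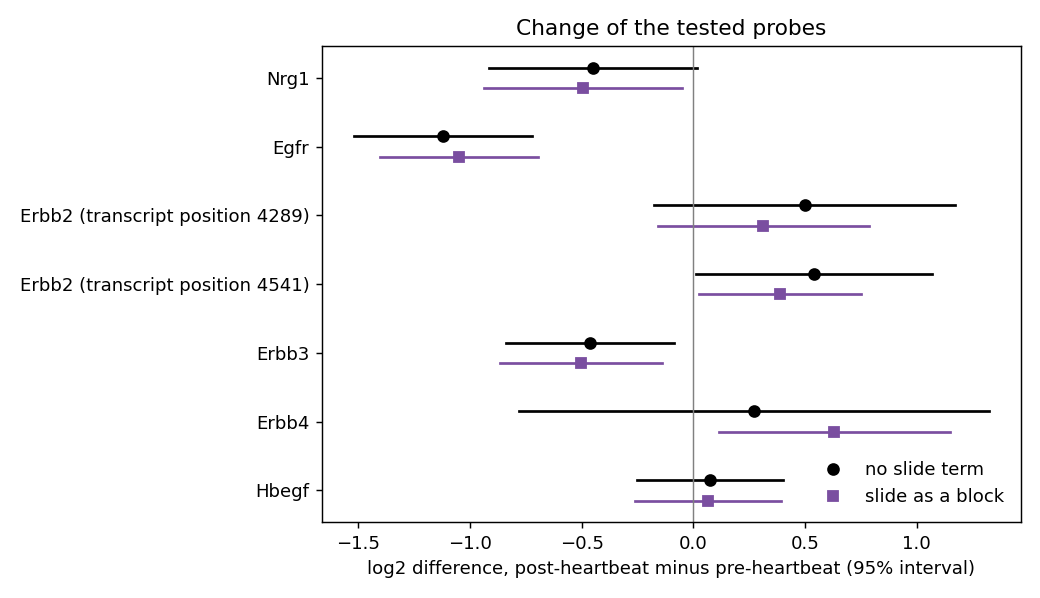
Log2 difference between the groups, post-heartbeat minus pre-heartbeat, with its 95% interval for the 7 tested probes, without a slide term (black circles) and with the slide as a block (purple squares). Egfr lies farthest from 0 at -1.12 and -1.05, the interval of Hbegf is centred near 0, and Erbb4 moves from 0.27 to 0.63 with the block.

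Some genes ran closely with a member over the 6 arrays. The likeness was the root mean square difference between 2 profiles, each centred on its own mean, and it was computed for member probes well above background on all arrays that spanned at least 1 on the log2 scale. Nearest to Egfr were Lix1 (0.081) and Kcnh6 (0.12), which were lower in the post-heartbeat group by log2 differences of -1.01 and -1.24. Neither passed the threshold in limma (adjusted p = 0.0966 and 0.107), and Kcnh6 was dim, at -6.86, -6.99 and -6.47 in the post-heartbeat samples. Nearest to Erbb4 were Angpt1 (0.16), a ligand of the endothelial receptor TIE2 that myocardial cells make, and Slc8a1 (0.19), the sodium-calcium exchanger of cardiac muscle. Angpt1 had its lowest level, -1.49, in pre-heartbeat sample 1 and its highest, 0.36, in post-heartbeat sample 3, the arrays at which Erbb4 was also lowest and highest. Nearest to the second Erbb2 probe were Farp1 and Rfng (both 0.039), and nearest to the third were Tinagl1 (0.045) and C19h1orf198 (0.048). These are descriptions over 6 arrays that share slides and groups.

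**Figure D3:**
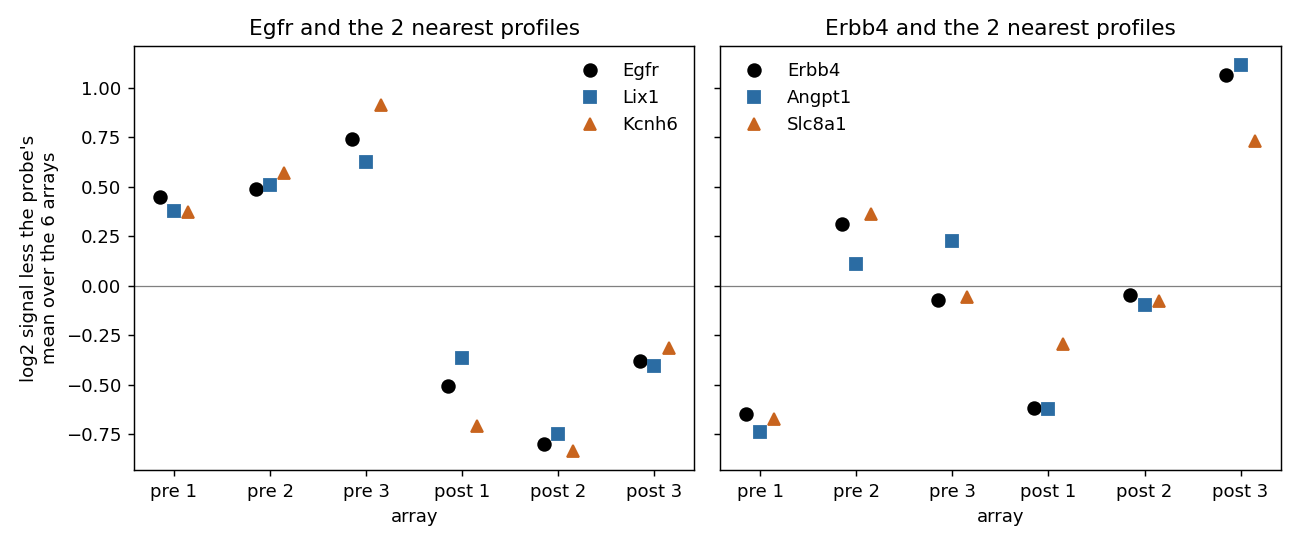
Log2 signal of Egfr (left) and Erbb4 (right) and of the 2 genes with the nearest profiles, each less its mean over the 6 arrays, for every array. Egfr, Lix1 and Kcnh6 separate the groups on all 6 arrays, whereas Erbb4, Angpt1 and Slc8a1 are lowest in pre-heartbeat sample 1 and highest in post-heartbeat sample 3.

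The rest of the pathway was described with 104 other genes that were matched on the array, of which 97 had a tested probe, the brightest tested probe standing for each gene. In limma 1 of the 97 genes rose past the threshold and 0 fell, against 0.189% of all 12684 genes, and 6 (of 97) had an unadjusted p under 0.05, where 8.04% of all genes did. The rule of the methods selected 3 as higher, against 2.32% of all genes, and 0 as lower, against 1.21%. In the fit with the slide block 2 genes rose, against 1.48%, and 0 fell, against 0.56%. The median log2 difference of the 97 genes was 0.066, with 58 higher and 39 lower. That of all 12684 genes was -0.022, with 5888 higher and 6796 lower. With the slide block the median of the 97 was 0.051, with 65 higher and 32 lower, and that of all genes was -0.010.

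Of the other 8 ligands of the family, Nrg3, Areg, Ereg, Btc and Epgn were well above background on no array. Tgfa and Egf, ligands of EGFR, were well above background on all 6 arrays and differed by 0.24 and -0.32. With the slide block these differences shrank to 0.042 and -0.099, and within slides 1 and 2 Tgfa differed by 0.15 and -0.068 and Egf by -0.041 and -0.16. Nrg4, a ligand of ERBB4, was well above background on 3 pre-heartbeat arrays and 1 post-heartbeat array and was tested only through the former group. It differed by -0.49, by -0.56 with the slide block, and by -0.19 and -0.94 within slides 1 and 2. None of these 3 passed the threshold in limma, with an adjusted p of 0.866 for each, or with the slide block. The ligands with a signal on every array were therefore Nrg1, Hbegf, Egf and Tgfa.

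None of the 10 tested genes of ligand release, which include the sheddases Adam10 and Adam17, passed the threshold, and their median was -0.013, or 0.086 with the slide block, under which 9 of 10 were higher in place of 5. Among the 14 tested genes that restrain or stabilize the receptors, 10 were lower and 4 higher, none passed, and the median was -0.075, or -0.031 with the slide block. The adaptors at the receptors had 10 of 14 higher with a median of 0.16, and again none passed. Medians were 0.0020 for the 13 genes of the PI3K-AKT branch and 0.046 for the 13 genes of the RAS-ERK branch, or 0.042 and 0.073 with the slide block, and 0 genes passed in either.

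Genes that ERK activity is known to induce were mostly higher in the post-heartbeat group by group mean, with 13 of 15 tested genes higher and a median of 0.29. With the slide block 11 of 15 were higher and the median was 0.17. The groups did not overlap for 3 of the 15, where they did not for 13.2% of all genes. Dusp5, a phosphatase of ERK, differed by 0.54 (adjusted p = 0.424), Spry2, an inhibitor of receptor tyrosine kinase signalling, by 0.53 (adjusted p = 0.444) and Ier3, an immediate early gene, by 0.61 (adjusted p = 0.329). With the slide block the differences were 0.46, 0.47 and 0.50. Within slides 1 and 2 Dusp5 differed by 0.46 and 0.45, Spry2 by 0.54 and 0.39 and Ier3 by 0.45 and 0.55. The rule of the methods selected Ier3, but not with the slide block, normexp or quantile normalization, nor without pre-heartbeat sample 2 or 3 or post-heartbeat sample 1 or 2, and none of the 15 passed the threshold in limma. These genes respond to many receptors, FGF receptors among them.

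Genes of the trabecular programme contained the only pathway gene past the limma threshold, and the 2 that passed with the slide block. No gene of the other pathway lists, from ligands to ERK response, passed in either fit. Nppa, which encodes the atrial natriuretic peptide and marks working chamber myocardium, was at -1.51, -1.16 and -1.20 before and 0.48, 0.60 and 0.57 after. It rose by 1.84 on the log2 scale (SE 0.15, limma adjusted p = 0.0199), although the call was lost when any 1 array was left out. With the slide block it rose by 1.90 (adjusted p = 0.0033), and the difference was 2.05 and 1.75 within slides 1 and 2. Irx4, a ventricular transcription factor, was at 0.45, -0.20 and 0.43 before and 1.61, 1.67 and 1.28 after. Its difference of 1.29 (SE 0.22) had a limma adjusted p of 0.109. With the slide block it rose by 1.18 (adjusted p = 0.0269), and the difference was 1.19 and 1.17 within slides 1 and 2. The other 13 tested genes of this list, among them the Notch genes and Bmp10, did not pass, and the median of the list was 0.14, or 0.23 with the slide block.

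**Figure D4:**
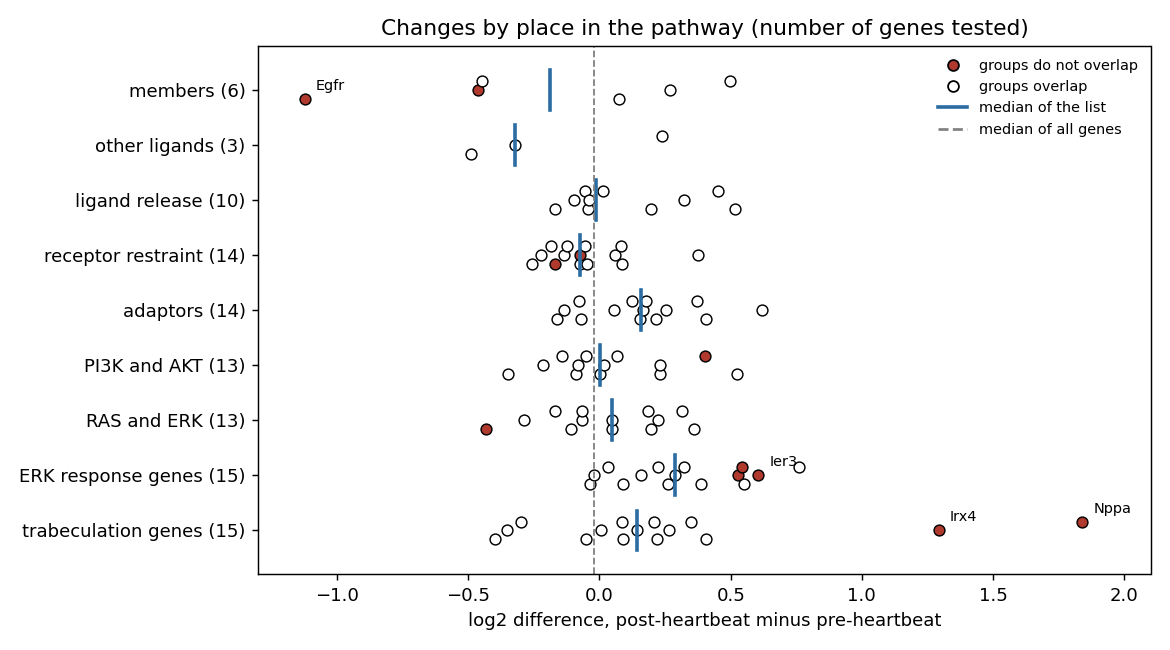
Log2 difference between the groups for each tested gene, arranged by place in the pathway, with the number of genes tested in brackets. Filled points are genes whose groups did not overlap, blue bars the list medians and the dashed line the median of all genes, -0.022; Egfr is the lowest point and Nppa the highest.

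The labelled tissue was checked against markers of cardiac muscle and of the cell types that lie beside it in the embryo. All 9 cardiac muscle markers, from Tnnt2 to Nkx2-5, were well above background, and their summed signal, in units of the array's 75th percentile, was 365 to 619 before and 678 to 815 after, with 8 of 9 higher. By group mean this list moved in the direction of Nppa, Irx4, Erbb2 and Erbb4. Within the pre-heartbeat group, sample 1 had the lowest sum, 365, and the highest level of both tested Erbb2 probes. Sample 2 had the highest sum, 619, and the lowest level of both. Erbb4 ran in the order of the sum within each group. The part of the list in these differences was not tested.

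In most of the other lists 1 bright gene made up most of the sum, so each sum is also given without it. Neural ectoderm markers summed to 6.75 to 7.58 before and 2.57 to 3.07 after, and to 0.81 to 1.49 and 0.55 to 0.94 without Otx2. All 3 tested genes of that list were lower, Otx2 by -1.56 (limma adjusted p = 0.0199; -1.52 with the slide block), and Six3 and Zic1 were well above background on no array. Endothelial markers summed to 16.3 to 17.6 before and 11.5 to 13.2 after, and Kdr, a VEGF receptor that mesodermal progenitors also express, made up 74.9% to 83.4% of the sum. Without Kdr the sums overlapped, at 2.92 to 3.63 before and 2.72 to 3.08 after. Of the 9 endothelial genes 8 were lower, or 5 with the slide block, and all 9 were above background on at least 1 array. Endoderm markers summed to 44.9 to 48.2 before and 29.8 to 38.0 after, with 5 of 6 tested genes lower, and the sums overlapped without Ttr, at 4.13 to 12.7 and 5.71 to 8.81. Surface ectoderm markers overlapped, with 83.3 to 121 before and 76.5 to 95.7 after, but not without Krt18, when they were 13.9 to 15.8 before and lower on every array after, and 6 of 7 genes were lower.

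Neural crest markers summed to 8.77 to 9.52 before and 9.55 to 9.76 after, of which Pax3 made up at least 94.4%. Without Pax3 the sums were 0.40 to 0.50 and 0.30 to 0.43 and overlapped. Snai2, a transcription factor of neural crest and other migrating mesenchyme, differed by -1.37 and met the extended rule of the methods. It did not pass the threshold in limma (adjusted p = 0.116). With the slide block the difference was -1.21 (limma adjusted p = 0.0216). Tfap2a and Tfap2b were well above background on only some arrays and were not tested. They differed by -1.28 and -1.24, but their groups overlapped and the pre-heartbeat SDs were 1.46 and 1.45. Foxd3 and Sox9 were well above background on no array. Paraxial mesoderm markers summed to 13.4 to 15.8 before and 15.8 to 17.4 after, of which Tcf15 made up at least 95.5%, and Mesp2 was well above background on no array. Otx2, Kdr, Ttr, Snai2 and 6 of 7 surface ectoderm genes moved in the direction of Egfr and of Nrg1. Other tested genes of these lists were higher. They were 1 of 9 endothelial genes (Tie1, 0.50), 1 of 6 endoderm genes (Afp, 0.24) and 2 of 4 neural crest genes (Pax3, 0.12, and Ednrb, 0.16). They also included 1 of 7 surface ectoderm genes (Tp63, 0.0096). All 3 tested paraxial mesoderm genes were higher (Tcf15, 0.19, Tbx6, 0.58, and Foxc2, 0.29), or 2 with the slide block. The part of any of these genes in the differences of Egfr and Nrg1 was not tested.

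**Figure D5:**
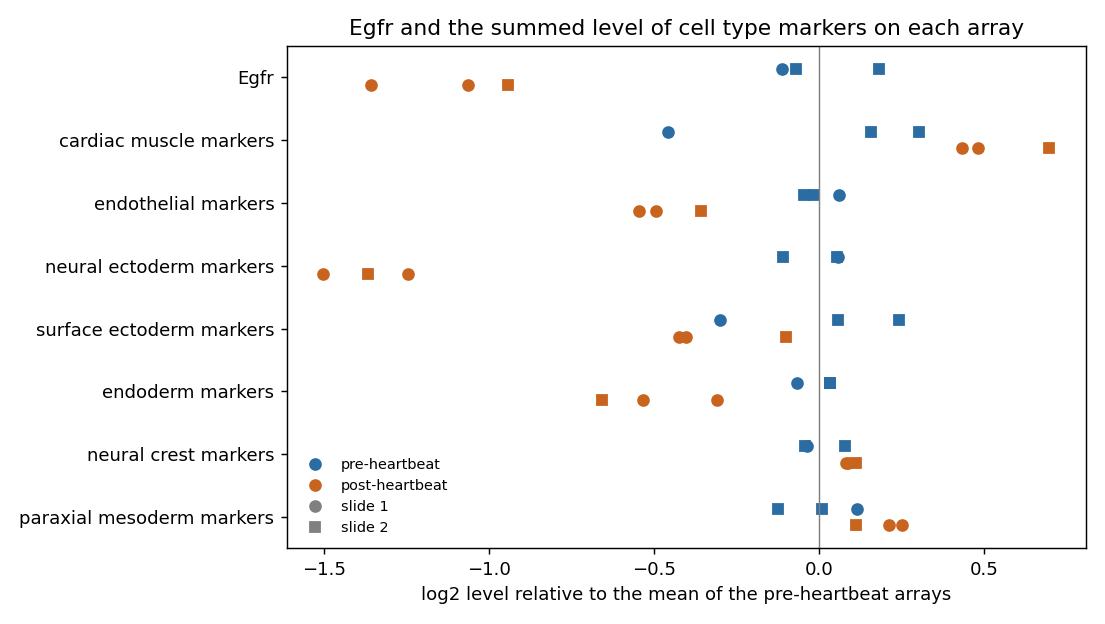
Level of Egfr and summed level of each list of cell type markers on every array, on a log2 scale relative to the mean of the 3 pre-heartbeat arrays, with circles for slide 1 and squares for slide 2. Egfr and the sums of the neural ectoderm, endothelial and endoderm markers, which are mostly Otx2, Kdr and Ttr, are lower on all 3 post-heartbeat arrays, and that of the cardiac muscle markers is higher.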

How the data were processed

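Gene expression was measured in 3 pre-heartbeat and 3 post-heartbeat samples. The authors hybridized Cy3-labeled cRNA to 1-color Agilent rat arrays and deposited, per the file headers, the processed signal of each spot from Feature Extraction 10.7.3.1, an intensity with the background subtracted and no normalization between arrays. The authors also deposited linear ratios, for which signals were shifted by the 75th percentile of an array and divided by a baseline value of the probe; on the log2 scale their differences between arrays were within 0.01 of those of the signal for 100% of 30367 probes. The ratios served as an alternative.

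Control and outlier spots were left out, log2 signals less the 75th percentile of the array were averaged over the spots of a probe, and 19297 probes were tested. A probe counted as well above background on an array where at least 50% of its spots were. Groups were compared with limma 3.58.1 in R 4.3.3 without a block, with Benjamini-Hochberg adjustment over all tested probes. The methods' test was Tukey's HSD, which with 2 groups equals the pooled comparison of the means. The study used it to select higher genes, and the methods' selection was extended here to lower genes. The procedure was tested on simulated data. Every probe of the 7 genes is named, and of the other pathway genes the ligands, those that passed in limma with or without the block, and those in the methods' selection; Dusp5 and Spry2 were added after their values had been seen, as were the marker genes and others named as examples of a list. The members and lists were chosen with earlier results of these data known. Alternatives were the slide or the replicate number as a block, normexp with an offset of 50, quantile normalization, the percentile over detected probes, omission of the filter or its extension to all 6 arrays, the authors' ratios, the methods' test, an intensity trend, a threshold of 2 fold, the mean of a gene's probes, and leaving out each array. Leaving out arrays with the slide as a block was added once values were known.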

Additional observations from a re-analysis of the deposited data

How the results depend on the processing

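Among all tested probes, 27 passed the threshold in limma. The number was 15 with the percentile over detected probes, 13 with the authors' ratios, 45 with an intensity trend, 0 with the methods' test after Benjamini-Hochberg adjustment, 1 with no filter, 50 with normexp, 14 with quantile normalization, 144 with the replicate number as a block and 312 with the slide as a block. It was 0 to 2 when 1 array was left out, and 6, 436, 333, 139, 321 and 1 with the slide as a block as well, without pre-heartbeat samples 1, 2 and 3 and post-heartbeat samples 1, 2 and 3 in turn. Of the member probes 0 passed, and 1, Egfr, passed with the slide or the replicate number as a block. The number was 0 when 1 array was left out, and 0 to 1 with the slide block as well. The methods' selection held 1 member probe, and 1 to 2 when an array was left out (Egfr and Nrg1 without post-heartbeat sample 1), and 0 to 3 with the slide as a block as well (Egfr, Nrg1 and Erbb3 without post-heartbeat sample 1, none without pre-heartbeat sample 1). Of the pathway genes 1 passed in limma, 0 with no filter or with the methods' test after adjustment, 2 with the slide block, 0 when any array was left out, and 0 to 2 with both. The selection held 3 pathway genes, 2 to 5 when an array was left out (5 without post-heartbeat sample 3), and 1 to 3 with the slide block as well. When 1 array was left out, the difference of Erbb4 ranged from -0.20, without post-heartbeat sample 3, to 0.65, and that of Hbegf from -0.0062, without post-heartbeat sample 1, to 0.12. Hbegf also turned to -0.040 within slide 2, which is also its value with the slide block without pre-heartbeat sample 1. The directions of Egfr, Nrg1, Erbb3 and both tested Erbb2 probes were the same under every alternative run. The causes were not tested.

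The deviations of samples with the same replicate number correlated by 0.65 and 0.49 for numbers 1 and 3, whose samples shared a slide, and by -0.28 for number 2, whose samples did not, so the numbers were not taken to pair the samples. With the replicate number as a block, the difference of Egfr was -1.12 with a limma adjusted p of 0.0430, and the block changed the call of no other member. With 3 arrays per group the exact permutation test cannot go below 0.1, and probes near background, such as those of Nrg2, have only a bound.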
